A study of Mus musculus with 2 samples.

Results

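Ribosome footprints of the ATF4 axis and of the enzymes that make serine and asparagine were compared between 2 libraries of mouse lung fibroblasts. Ribosome profiling halts ribosomes on their mRNAs, here with cycloheximide, digests the unprotected RNA and sequences the short pieces that ribosomes shield. The genes are the stress factors Atf4, Atf5, Ddit3, Ddit4 and Trib3 and the enzymes Asns, Psat1, Phgdh, Shmt2 and Mthfd2, chosen by name as factors of the integrated stress response and their amino acid synthesis targets. Of the 10 names, 9 matched a gene among the 14886 protein-coding genes of the count table, and Atf5 was not analysed here. There is 1 library labelled IR and 1 labelled NC, and each fold is IR over NC. The labels spell out neither abbreviation and give no strain, age, dose, time or agent for these cells, and whether the fibroblasts themselves were irradiated is not stated. The subject of the study is lung fibrosis after radiation, the effect of rosmarinic acid on it and the change of fibroblasts into myofibroblasts, and its design assigns ribosome profiling to the search for target mRNAs.

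The integrated stress response starts when stress kinases phosphorylate the initiation factor eIF2, which lowers protein synthesis in general but lets ribosomes pass the upstream reading frames of Atf4 mRNA and reach its coding sequence. ATF4 pairs with C/EBP proteins and switches on genes for amino acid synthesis, amino acid uptake and tRNA charging, and, under lasting stress, Ddit3 and Trib3. In lung fibroblasts the pathway is known for supplying glycine, made from serine, to collagen synthesis.

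ATF4 is known to bind C/EBP-ATF elements, whose core is TGATGNAA, and the stretches below show the matches to it, or to a related run that 2 of the genes share, before the start sites of 3 of the genes, with the matched letters in capitals. The windows are those of RefSeq on GRCm38.p6, from 250 bases before to 50 after a start, and all 9 genes had at least 1 window. Each stretch is on the minus strand and is written 5′ to 3′ along the gene.
Asns, chr6:7693210-7693262: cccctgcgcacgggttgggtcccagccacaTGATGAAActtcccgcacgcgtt
Trib3, chr2:152344061-152344123: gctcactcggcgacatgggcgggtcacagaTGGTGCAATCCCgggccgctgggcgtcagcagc
Psat1, chr19:15925154-15925225: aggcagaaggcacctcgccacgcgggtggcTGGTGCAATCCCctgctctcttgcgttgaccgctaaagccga

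The TGATGNAA match in Asns begins 23 bases before the start site. Trib3 holds TGATGNAA on the other strand, beginning at base 15 counted from its start site. Searched on both strands, TGATGNAA was present in 2 of the 9 genes and in 4.51% of all 27025 genes with a window of 300 bases. The letters TGGTGCAATCCC were chosen after the windows of these genes were read, as the longest run around the C/EBP-ATF part-site TGCAAT that 2 of them share, so their presence in both is no finding. They begin 33 bases before the start site in Trib3 and 136 bases before it in Psat1, are in 0.0148% of all genes with a window, and overlap no TGATGNAA match in either gene. The spans of Asns and Psat1 in the count table reach further upstream than these RefSeq starts. These matches describe the sequence only.

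There were 888835 reads on genes in IR against 695446 in NC, and the median gene had 12 in either library. Counts were scaled by TMM, a method that assumes most genes do not differ, and 5989 genes reached the floor set for comparisons across genes, an average of 20 reads over the pair of libraries. A fold of scaled counts, IR over NC, is given with a 95% interval that covers counting error only. A gene whose interval leaves out 1 is called higher or lower beyond counting error. There is no replicate and therefore no test between the conditions, and how far 2 libraries of the same condition would differ was not measured. A footprint count also moves with the amount of mRNA, with ribosomes per mRNA and with the number of cells that make it, which cannot be told apart here. Of 12 listed fibroblast genes 11 had a row, and their summed reads were 11204 in IR against 8606 in NC, which is 1.29-fold (1.25 to 1.32). Of the 11, 6 were higher and 2 lower beyond counting error, against 23.5% and 23.7% of all genes above the floor. Among all genes with a mean of at least 100, these shares were 38.2% and 25.8%. The abundant collagen gene Col1a1 had 3455 reads in IR against 3124 in NC, the proteoglycan gene Lum 1349 in IR against 222 in NC, and the lower pair were Col3a1 (348 in IR, 519 in NC) and Pdgfra (38 in IR, 66 in NC). Under TMM scaling, summed markers of other cells were higher in IR for each list. They reached 90 reads in IR against 29 in NC for 6 of 12 listed epithelial genes, 455 in IR against 334 in NC for 8 of 12 macrophage and leukocyte genes, 6954 in IR against 2715 in NC for 8 of 8 endothelial genes, 413 in IR against 287 in NC for 8 of 8 smooth muscle and pericyte genes, and 506 in IR against 125 in NC for 5 of 5 mesothelial genes. Of the endothelial sum, Emcn alone held 6842 reads in IR against 2618 in NC, while the defining marker Cdh5 had 1 in IR against 0 in NC, too few to give a direction. Vwf had 37 in IR against 15 in NC. Tie1 and Cldn5 went the other way, with 21 in IR against 53 in NC and 0 in IR against 5 in NC. Defining markers went either way. Epcam of epithelium had 0 in IR against 1 in NC, and Myh11 of smooth muscle 0 in IR against 24 in NC. Ptprc of leukocytes had 8 in IR against 0 in NC, and Wt1 of mesothelium 417 in IR against 77 in NC. Among the other markers, Abca3 of epithelium had 73 in IR against 27 in NC, and Synpo2 of smooth muscle 136 in IR against 39 in NC. Of the leukocyte sum, Cd74 held 244 in IR against 169 in NC and Cd3e 178 in IR against 157 in NC. Scaling by total counts would lower the log2 fold of each marker sum by 0.34, so the size of these differences depends on the scaling. The part of other cells in the results below was not tested.

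The stress factors gave fewer footprints in the IR library, with Ddit4 as the exception. Under TMM scaling the synthesis enzymes together gave about as many in IR as in NC. Their summed fold was lower without Asns, at 0.878 (0.796 to 0.968), and with scaling by total counts, at 0.764. Of the 9 genes, 4 were lower in IR beyond counting error (Atf4, Ddit3, Trib3 and Psat1) and 0 were higher. Over all 5989 genes, 23.7% were lower and 23.5% higher by the same rule. None of the 9 genes differed 2-fold, against 11.9% of all genes at least 2-fold lower and 11.8% at least 2-fold higher. At 1.5-fold, 2 genes were lower (Atf4 and Ddit3) and 1 was higher (Ddit4), where 23.4% and 22.3% of all genes were. The median log2 ratio was -0.31 over the 9 genes and -0.02 over all genes, with the lower and upper quartiles of all genes at -0.54 and 0.51, a range that held 6 of the 9. The share beyond counting error depends on depth, so the 5 genes with a mean of 100 or more (Atf4, Trib3, Asns, Psat1 and Shmt2) were also read against the 1332 genes of that depth. Of the 5, 3 were lower beyond counting error and 0 higher, against 25.8% and 38.2% of those genes. None of the 5 was 2-fold lower, against 4.58%, and 1 (Atf4) was at least 1.5-fold lower, against 13.7%.

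**Figure D1:**
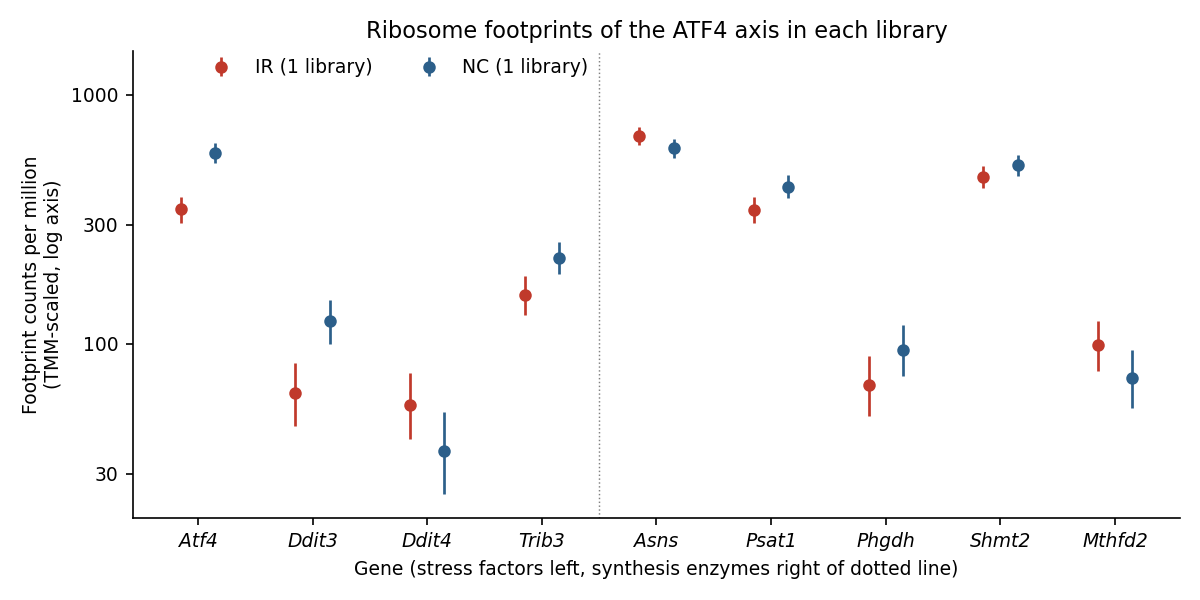
Footprint CPM after TMM scaling (log axis) of each gene in the IR library (red) and the NC library (blue), with exact 95% Poisson intervals for counting error. Red lies below blue for Atf4, Ddit3, Trib3, Psat1, Phgdh and Shmt2 and above it for Ddit4, Asns and Mthfd2. Heights of different genes are not comparable, since counts are not divided by length.

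Atf4 encodes the transcription factor at the centre of the response and lies on chromosome 15 at 80255184 to 80257540 (mm10, plus strand). It had 274 reads in IR against 457 in NC, which is 346 CPM in IR against 585 CPM in NC after scaling. The exact Poisson intervals of its counts before scaling, 243 to 308 in IR and 416 to 501 in NC, did not overlap. Those of Ddit3 and Trib3 did not overlap either, and the share of all genes without overlap was not computed. Atf4 footprints were 1.69-fold lower in IR (95% interval 1.45 to 1.97), a log2 ratio below which lay 17.5% of all genes. Counts are per gene, and whether reads on the upstream reading frames entered them is not given in the sources used here.

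Ddit3 encodes CHOP, a C/EBP family factor linked to cell death under lasting ER stress, and lies on chromosome 10 at 127290774 to 127296288 on the plus strand. It had 50 reads in IR against 96 in NC, and was 1.94-fold lower in IR (1.37 to 2.79), the lowest fold of the 9 genes. The tail of its span overlaps that of Mars, the methionyl-tRNA synthetase gene on the opposite strand, which had 166 reads in IR against 185 in NC. Reads in the overlap cannot be assigned without the strand setting, and 12.5% of all genes had a lower log2 ratio than Ddit3. In RefSeq the span of Ddit3 also overlaps Mbd6.

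Trib3 encodes a pseudokinase that ATF4 and CHOP induce and that in turn restrains ATF4 and Akt, and lies on chromosome 2 at 152337422 to 152344032 on the minus strand. It had 124 reads in IR against 173 in NC, and was 1.41-fold lower in IR (1.11 to 1.79). Its position among all genes was closer to the middle, with 26.6% of them at a lower log2 ratio. Ddit4 encodes REDD1, an inhibitor of the mTORC1 kinase complex that glucocorticoids, hypoxia and DNA damage also induce, and lies on chromosome 10 at 59949675 to 59951770 on the minus strand. It had 45 reads in IR against 29 in NC, and the fold of 1.53 (0.940 to 2.54) was the highest of the 9 genes. At this depth the interval held 1, so a difference in Ddit4 was not detectable from counting alone. The Poisson intervals of its counts, 32.8 to 60.2 in IR and 19.4 to 41.6 in NC, overlapped.

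**Figure D2:**
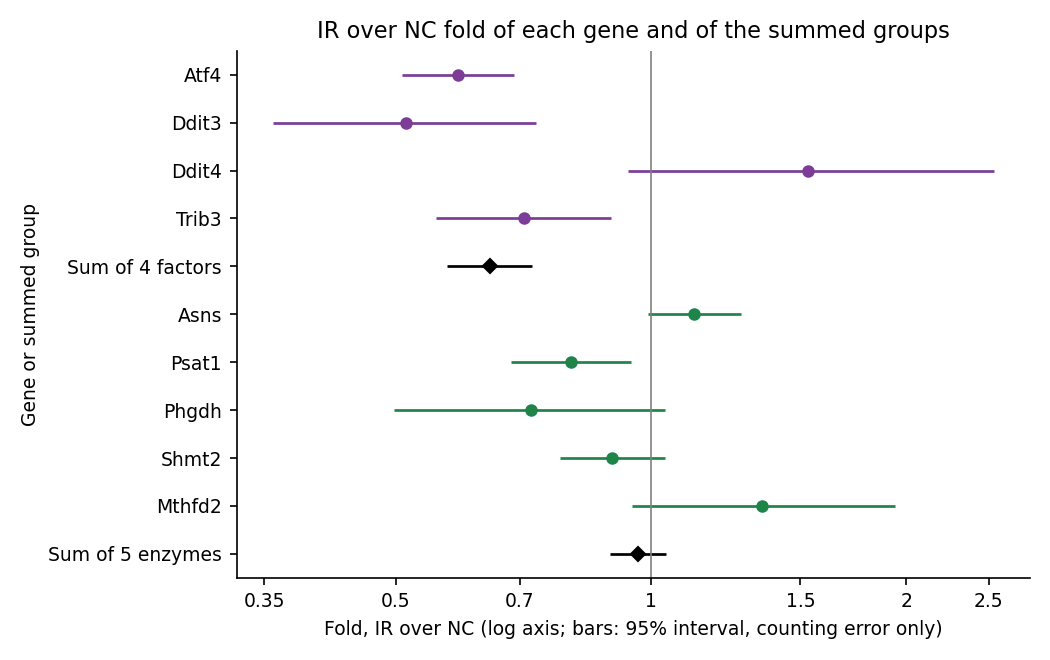
Fold of TMM-scaled footprint counts, IR over NC (log axis), with 95% intervals for counting error, for each stress factor (purple), each synthesis enzyme (green) and the summed groups (black diamonds). The intervals of Atf4, Ddit3, Trib3, Psat1 and the summed factors lie wholly below 1, and that of the summed enzymes holds 1.

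Asns encodes asparagine synthetase, which makes asparagine from aspartate and glutamine, and lies on chromosome 6 at 7675169 to 7693254 on the minus strand. It had 541 reads in IR against 475 in NC, the most of the 9 genes in each library. The fold was 1.13 (0.993 to 1.28), so its interval just reached 1 on the opposite side from Atf4. With median-of-ratios or upper-quartile scaling the interval lay wholly above 1, and with scaling by total counts the fold was 0.891 (0.786 to 1.01). The direction for Asns therefore depends on the scaling.

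Serine is made from a glycolytic intermediate in 3 steps, by Phgdh, Psat1 and Psph. Phgdh, which takes the first step, lies on chromosome 3 at 98313170 to 98339990 and had 54 reads in IR against 74 in NC, a fold of 0.721 (0.498 to 1.04). Psat1, the aminotransferase of the second step, lies on chromosome 19 at 15904678 to 15947337 and had 272 reads in IR against 334 in NC. Psat1 was 1.24-fold lower in IR (1.06 to 1.46) and was the only synthesis enzyme of the 5 that differed beyond counting error. Psph, the phosphatase of the third step, is not among the 9 genes and was lower too, with 140 reads in IR against 220 in NC, a fold of 0.629 (0.505 to 0.781). Phgdh and Psat1 together had 326 reads in IR against 408 in NC, 1.27-fold lower in IR (1.09 to 1.47).

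Shmt2 turns serine into glycine in mitochondria and loads the freed carbon unit onto folate, and Mthfd2 oxidises that folate in the next step. Shmt2 lies on chromosome 10 at 127517123 to 127522444 and had 371 reads in IR against 407 in NC, a fold of 0.901 (0.780 to 1.04). Mthfd2 lies on chromosome 6 at 83305691 to 83317606 and had 78 reads in IR against 57 in NC, a fold of 1.35 (0.949 to 1.94). The pair summed to 449 reads in IR against 464 in NC, and the fold of this sum, 0.956 (0.838 to 1.09), showed no difference beyond counting error. Shmt2 held most of the sum, and the 2 genes lay on opposite sides of 1. The count of Shmt2 per Mthfd2 count had a ratio, IR over NC, of 0.666 (0.452 to 0.979). In RefSeq the span of Shmt2 overlaps Ndufa4l2.

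**Figure D3:**
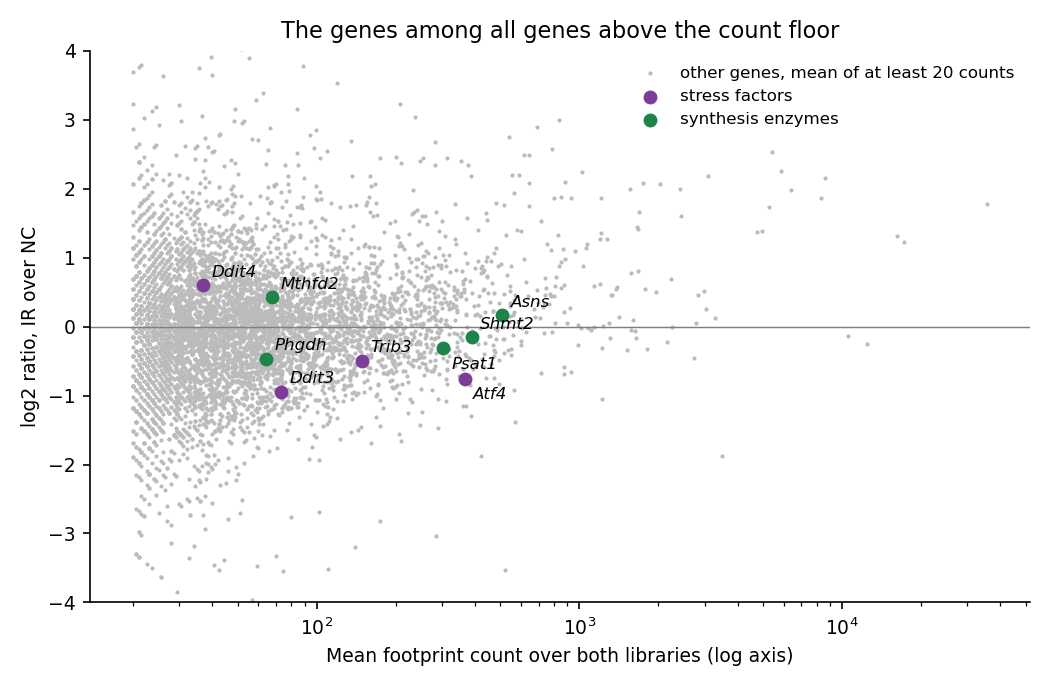
The log2 ratio of IR over NC (pseudocount 1) against the mean count (log axis) for all genes above the floor of 20, with stress factors in purple and synthesis enzymes in green (30 genes lie beyond the vertical limits). The 9 genes sit inside the cloud of all genes, with Ddit3 lowest at -0.94 and Ddit4 highest at 0.60.

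Summed over the group, the 4 factors had 493 reads in IR against 755 in NC, 1.55-fold lower in IR (1.38 to 1.74). Atf4 held the most counts of the factors, and without it the sum was 219 in IR against 298 in NC, 1.38-fold lower in IR (1.15 to 1.65). The 5 enzymes had 1316 reads in IR against 1347 in NC, a fold of 0.965 (0.894 to 1.04). Asns weighed most here, and the other 4 enzymes summed to 775 in IR against 872 in NC, 1.14-fold lower in IR (1.03 to 1.26).

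The ratio of a factor's count to an enzyme's count within a library needs no scaling, and setting the ratio in IR over that in NC also cancels gene length. There were 0.375 factor counts per enzyme count in IR and 0.560 in NC, a ratio of 0.668 (0.582 to 0.768). Atf4 had 0.506 counts per Asns count in IR and 0.962 in NC, a ratio of 0.526 (0.431 to 0.642). Footprints of the factor thus made up a smaller share beside those of asparagine synthetase in IR under any scaling. Of the 20 pairs of a factor with an enzyme, 10 had a ratio lower in IR beyond counting error, 3 had one higher and 7 neither. The pairs reuse the same 9 genes, so they are not 20 separate results. The share among pairs of any other genes was not computed. Atf4 and Ddit3 accounted for 4 lower pairs each and Trib3 for 2, while the 3 higher pairs all had Ddit4 as the numerator. Phgdh gave no lower pair with Atf4, Ddit3 or Trib3, at ratios of 0.822, 0.714 and 0.982. Mthfd2, with a similar number of counts, gave a lower pair with each, at 0.438, 0.381 and 0.524.

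Within the factors, Ddit4 parted from the others on the same measure. The count of Atf4 per Ddit4 count was 6.09 in IR and 15.8 in NC, a ratio of 0.386 (0.228 to 0.647). For Ddit3 per Ddit4 the ratio was 0.336 (0.180 to 0.623), and for Ddit4 per Trib3 it was 2.16 (1.25 to 3.79). Atf4 against Ddit3, at 1.15 (0.782 to 1.71), and Atf4 against Trib3, at 0.836 (0.630 to 1.11), did not differ beyond counting error. Among the 10 pairs of enzymes, 6 did, and each of these held Asns or Mthfd2. The share among pairs of any other genes was not computed here either. Asns gained on Psat1 by 1.40-fold (1.14 to 1.72), on Phgdh by 1.56-fold (1.06 to 2.31) and on Shmt2 by 1.25-fold (1.03 to 1.51). Mthfd2 gained likewise, since the count of Psat1 per Mthfd2 count had a ratio of 0.595 (0.400 to 0.882), that of Phgdh one of 0.533 (0.317 to 0.896) and that of Shmt2 one of 0.666 (0.452 to 0.979).

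**Figure D4:**
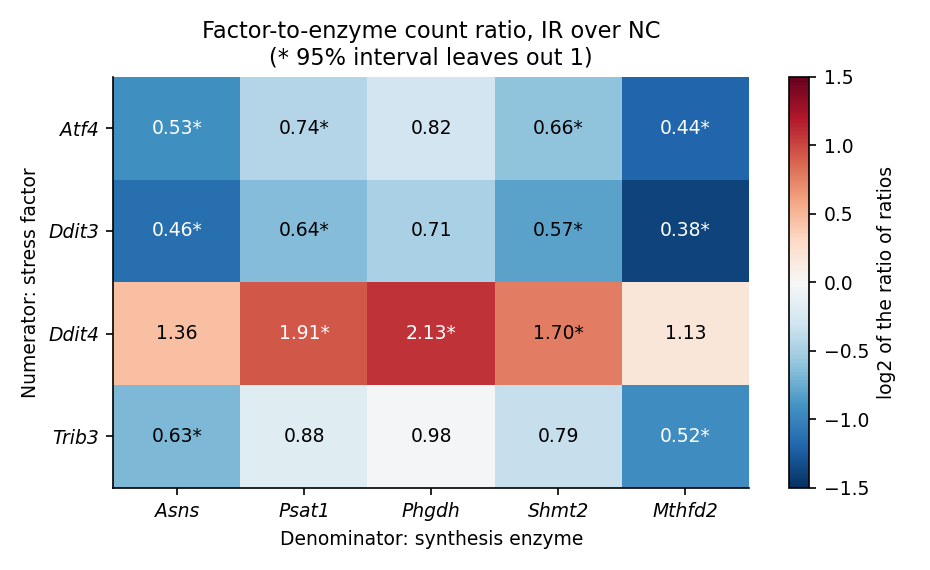
Ratio of ratios for each stress factor (rows) over each synthesis enzyme (columns), the factor-to-enzyme count ratio in IR divided by that in NC, coloured by its log2 value, with a star where the 95% interval leaves out 1. The Atf4, Ddit3 and Trib3 rows run from 0.381 to 0.982, and the Ddit4 row from 1.13 to 2.13.

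Upstream of ATF4 are the eIF2 kinases and the phosphatase that undoes their work. Of 8 genes 6 were above the floor, and their log2 ratios had a median of -0.14. Beyond counting error 0 of the 6 were lower and 0 higher, against 23.7% and 23.5% of all genes. Ppp1r15a encodes GADD34, the stress-induced phosphatase subunit whose mRNA also carries upstream reading frames, and had 107 reads in IR against 116 in NC, a fold of 0.911 (0.694 to 1.20). It overlaps Tulp2. Its constitutive relative Ppp1r15b had 35 reads in IR against 23 in NC. The GCN2 kinase gene Eif2ak4, which senses uncharged tRNA, had 50 reads in IR against 47 in NC, the PKR gene Eif2ak2 52 in IR against 68 in NC, and Eif2s1, which encodes the phosphorylated subunit of eIF2, 59 in IR against 69 in NC. Below the floor, the PERK kinase gene Eif2ak3 had 19 reads in IR against 7 in NC, a fold of 2.68 (1.08 to 7.55), and the HRI kinase gene Eif2ak1, named after its values were seen, 8 in IR against 19 in NC, a fold of 0.416 (0.158 to 0.995). Eif2ak1 overlaps Aimp2 and Ankrd61.

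Other stress factors and targets of ATF4 went both ways, with more of them lower. Of 12 genes 10 were above the floor, and their log2 ratios had a median of -0.29. Beyond counting error 5 of the 10 were lower and 1 higher, against 23.7% and 23.5% of all genes. Cebpg, a C/EBP partner of ATF4, had 11 reads in IR against 45 in NC and was 4.14-fold lower (2.11 to 8.88). Fgf21, a hormone induced by ATF4, had 20 reads in IR against 42 in NC. The growth differentiation factor gene Gdf15, which p53 also induces, went the other way, with 51 reads in IR against 13 in NC, a fold of 3.88 (2.08 to 7.77). The remaining 3 lower genes, named after their values were seen, were the AP-1 repressor gene Jdp2 (48 in IR, 99 in NC), the stress-induced chromatin protein gene Nupr1 (93 in IR, 141 in NC) and Vegfa (183 in IR, 233 in NC). Chac1, which degrades glutathione, had 91 reads in IR against 105 in NC, a fold of 0.856 (0.639 to 1.14). Sesn2, an inhibitor of mTORC1, had 44 reads in IR against 43 in NC, and Klhl24 36 in IR against 27 in NC. Atf3 was below the floor, with 16 reads in IR against 22 in NC.

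The other enzymes of serine, glycine and folate metabolism were mostly shallow, and 7 of 16 were above the floor. Among the 7, 1 (Psph) was lower and 1 (Shmt1) higher beyond counting error, against 23.7% and 23.5% of all genes. Their median log2 ratio was -0.08. Shmt1, the cytosolic counterpart of Shmt2, had 31 reads in IR against 13 in NC, a fold of 2.36 (1.20 to 4.91), and overlaps Smcr8. Mthfd1, the cytosolic folate enzyme, had 30 reads in IR against 23 in NC, and Mthfd1l, which releases formate from mitochondria, 35 in IR against 52 in NC. Enzymes for other amino acids had 3 of 10 lower and 1 higher beyond counting error, against the same shares of all genes. Their median log2 ratio was -0.19. Pycr1, which makes proline, was 1.79-fold lower (1.15 to 2.81), with 34 reads in IR against 60 in NC. Aldh18a1, which takes the step to proline before it and was named after its values were seen, had 259 reads in IR against 325 in NC. Glutamine synthetase, Glul, had 16 reads in IR against 32 in NC, while Asl, an arginine synthesis enzyme, had 81 in IR against 53 in NC and was 1.51-fold higher (1.05 to 2.18). Gpt2, an alanine aminotransferase, had 73 reads in IR against 61 in NC.

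Amino acid transporters, many of which ATF4 is known to induce, had more genes above than below NC in IR. Of 12 genes 11 were above the floor, and their log2 ratios had a median of 0.22. The median was -0.02 over all genes above the floor and 0.10 over those with a mean of at least 100. By more than counting error 5 of the 11 were above and 2 below NC, against 23.5% and 23.7% of all genes. Among all genes with a mean of at least 100, these shares were 38.2% and 25.8%. Slc7a3, a cationic amino acid transporter, had 130 reads in IR against 38 in NC, a fold of 3.38 (2.34 to 4.99). Slc38a1, a carrier of glutamine and other neutral amino acids, had 218 reads in IR against 104 in NC, a fold of 2.07 (1.63 to 2.64). Slc7a5 and Slc3a2 encode the light and heavy chains of the leucine transporter, and both were higher. Slc7a5 had 409 reads in IR against 298 in NC, a fold of 1.36 (1.17 to 1.58), and Slc3a2 943 in IR against 801 in NC, a fold of 1.16 (1.06 to 1.28). The fifth higher gene was Slc7a1, named after its values were seen, with 542 reads in IR against 460 in NC. Slc38a2, a further carrier of neutral amino acids, was 1.20-fold lower (1.10 to 1.31), with 905 reads in IR against 1074 in NC. Slc1a5, another such carrier, had 284 in IR against 353 in NC. The cystine transporter gene Slc7a11 had 93 reads in IR against 85 in NC, a fold of 1.08 (0.797 to 1.47). With scaling by total counts 2 transporters were higher and 3 lower beyond counting error, against 13.1% and 39.1% of all genes under that scaling, so this balance depends on the scaling.

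**Figure D5:**
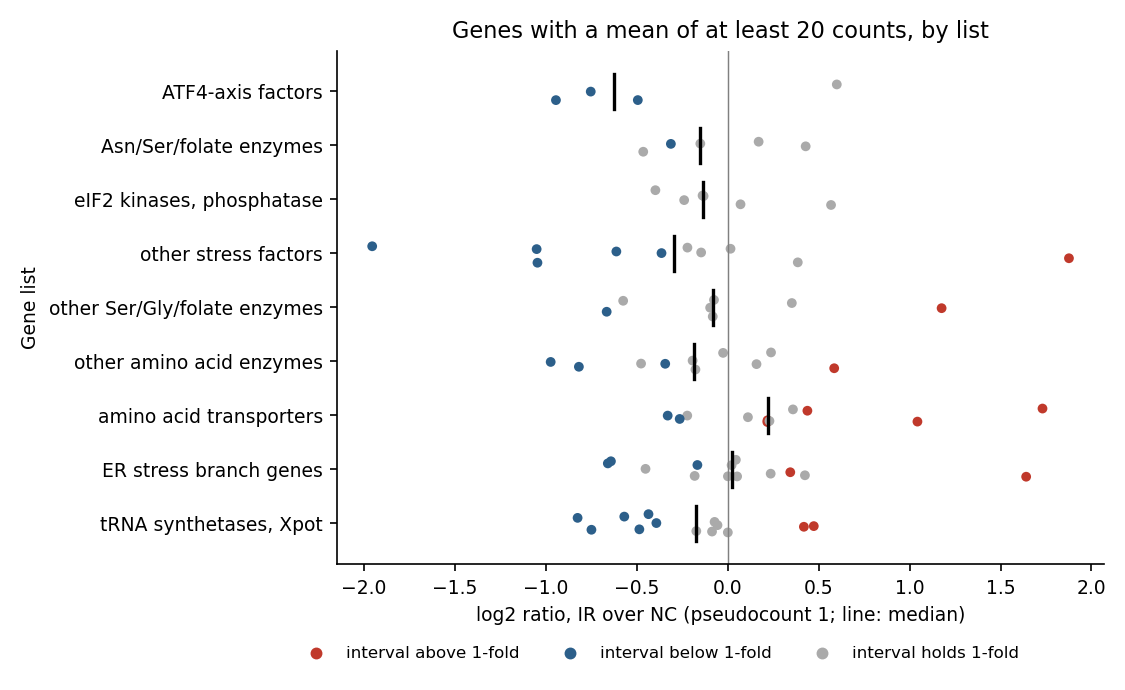
The log2 ratio of IR over NC (pseudocount 1) of each gene above the floor of 20, by list, with the list's median as a black line and colour showing whether the 95% interval of the fold lies above 1 (red), below 1 (blue) or holds it (grey). The medians run from -0.62 for the 4 factors to 0.22 for the amino acid transporters.

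Scaling by total counts, which the most abundant genes influence, lowers each log2 ratio by 0.34. Under it Atf4 was 2.13-fold lower (1.83 to 2.49), and 6 of the 9 genes were lower beyond counting error, Phgdh and Shmt2 in addition to the 4 above, against 39.1% of all 5989 genes lower and 13.1% higher under the same scaling. At 2-fold, 2 of the 9 (Atf4 and Ddit3) were lower and 0 higher, against 20.8% and 7.03% of all genes. Lower beyond counting error under it were also 4 of the 6 eIF2 kinase and phosphatase genes, 4 of the 7 other serine, glycine and folate enzymes and 6 of the 10 enzymes for other amino acids, with 0 higher in each. These counts stand against the same 39.1% of all genes.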

How the data were processed

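Ribosome footprints of mouse lung fibroblasts were deposited as counts of mapped reads per gene, per the file headers, for 1 IR and 1 NC library, grouped by their titles. Per the submitters' processing notes, the tools were HTSeq 0.9.1, TopHat2, Bowtie, cutadapt 1.9.3, DESeq2 and edgeR and the build mm10, without a stated role. How strand and multiply matched reads were treated is not given in the sources used here, nor is the annotation release. The table's 2 columns of log2 CPM were not used.

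Counts were scaled by TMM (edgeR 4.0.16, R 4.3.3). Folds carry no pseudocount. Their intervals, and those of pair ratios, come from exact (Clopper-Pearson) binomial and exact conditional odds-ratio limits, and those of counts from the Poisson distribution, taking each read as a separate footprint. PCR copies would widen them. The log2 ratios carry a pseudocount of 1. Folds and intervals were tested on simulated Poisson counts with known folds. Those counts hold counting error only, so the simulation cannot speak to PCR copies, scaling error or the spread between libraries.

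The genes and lists were chosen with earlier results of these data known. Named were the 9 genes, the 2 highest and 2 lowest folds above the floor in each of 7 pathway lists, and 14 pathway genes set by name. Others are marked. Pair ratios were added after the counts were seen. Footprint density per codon, though planned, was not computed, since coding lengths were not used here. Promoter windows are RefSeq's (GRCm38.p6). Analyses used Python 3.11.15 with scipy 1.17.1.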

Additional observations from a re-analysis of the deposited data

How the results depend on the processing

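With 1 library per condition, no replicate could be left out, and these folds describe 2 libraries only. No paired analysis was possible because each group has 1 library and no test was made. The fold of the summed factors was 0.645, and 0.511 with total-count scaling and 0.726 without Atf4. That of the summed enzymes was 0.965, and 0.764 with total-count scaling, 0.863 when scaled to the total without the 20 highest genes and 0.878 without Asns. At 1.5-fold in place of 2-fold, 1 of the 9 genes was higher and 2 were lower, in place of 0 each. Total-count scaling put 2 genes at least 2-fold lower, against 20.8% of all genes under it. The total without the 20 highest genes put 1 there. Shares of all genes were computed for TMM and total-count scaling only. Asns was the 1 gene higher beyond counting error with median-of-ratios or upper-quartile scaling. The number lower beyond counting error, against 4, was 3 among genes with a mean of at least 100 and 3 without overlapping genes. In both of these settings fewer genes were counted. It was 6 with total-count scaling, against 39.1% of all genes, and 6 with the total without the 20 highest genes. The fold of Atf4 lay between 0.469 and 0.600 and stayed below 1 under each scaling and pseudocount tried. Of the 320 other values for single genes and pathway lists, 262 stayed within their interval or within 1.5 times the count, and 58 moved further. Genes under about 50 counts, such as Ddit4, are limited by depth.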

Other observations

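Genes charged with loading tRNAs and with folding proteins in the ER sit beside ATF4 in the same stress network. The 12 cytosolic aminoacyl-tRNA synthetases and the tRNA exporter Xpot were all above the floor, and their log2 ratios had a median of -0.17. Of the 13, 6 were lower and 2 higher in IR beyond counting error, against 23.7% and 23.5% of all genes. At a mean of at least 100, which all but Xpot reached, 5 were lower and 2 higher. Of all genes of that depth, 25.8% were lower and 38.2% higher. The alanyl-tRNA synthetase gene Aars was 1.78-fold lower (1.51 to 2.10), with 228 reads in IR against 400 in NC, and Xpot 1.69-fold lower (1.22 to 2.36), with 61 in IR against 102 in NC. The cysteinyl and tryptophanyl enzymes were the 2 higher ones. Cars had 280 reads in IR against 199 in NC, a fold of 1.39 (1.15 to 1.68), and Wars, which interferon gamma also induces, 206 in IR against 152 in NC. With total-count scaling, which lowers every gene alike, 11 of the 13 were lower and 0 higher, against 39.1% and 13.1% of all genes. Under that scaling the shares among genes with a mean of at least 100 were not computed.

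The ATF6 and IRE1-XBP1 branches of the ER stress response had 13 genes above the floor, of which 3 were lower and 2 higher, against 23.7% and 23.5% of all genes, with a median log2 ratio of 0.02. The chaperone BiP, encoded by Hspa5 and the usual readout of ER stress, had 2275 reads in IR against 2246 in NC, with an interval of 0.944 to 1.06 around its fold. The IRE1 sensor gene Ern1 had 65 reads in IR against 102 in NC, a fold of 0.630 (0.454 to 0.868), and its target Xbp1 58 in IR against 90 in NC, a fold of 0.637 (0.450 to 0.895). Dnajb9, a BiP cofactor that XBP1 induces, went the other way, with 100 reads in IR against 31 in NC, a fold of 3.19 (2.11 to 4.93). Atf6 had 90 reads in IR against 66 in NC. The others beyond counting error, named after their values were seen, were Hyou1 (333 in IR, 259 in NC) and Herpud1 (1557 in IR, 1727 in NC).

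Over the 7 pathway lists, 20 of the 70 genes above the floor were lower and 12 higher beyond counting error, against 23.7% and 23.5% of all genes, and their median log2 ratio was -0.09, against -0.02.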
